A study of Mus musculus with 6 samples.

Results

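Macrophages with the profile of large peritoneal macrophages (LPMs), chosen on the summed transcripts of *Gata6*, *Klf2* and *Selp*, were examined in single-cell RNA-seq libraries of adherent peritoneal cells. Cells with at least 500 genes and at most 10% mitochondrial counts were kept, and a cell was taken as a macrophage (MΦ) when *Csf1r*, *Adgre1* and *Fcer1g* together had at least 2 unique molecular identifiers (UMIs, each a captured transcript), *Cd79a* and *Cd79b* at most 2, and *Cd3d*, *Cd3e* and *Nkg7* at most 1. Of these MΦs, the selected cells had at least 2 UMIs in the sum of *Gata6*, *Klf2* and *Selp* and at most 1 UMI of *Tnf*. They also had at most 2 UMIs in the sum of the stress genes *Trib3*, *Ddit3*, *Herpud1* and *Sesn2*, none of *Folr2*, and at most 1 in the sum of *Fcrls*, *Irf4*, *Ocstamp* and *Dcstamp*, which mark small peritoneal macrophages (SPMs). This gave 671 selected cells among 2773 MΦs, 7665 kept cells and 7760 barcodes, a share of 24.2% of MΦs (exact binomial 95% interval 22.6 to 25.8%).

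The libraries came from C57BL/6 mice (C57BL/6J in the methods) of genotype MerTK +/+ or MerTK -/-. The latter, titled MerKD, carry a mutant allele of the engulfment receptor MerTK in all cells and were backcrossed to this strain. Lavaged cells were left to adhere to plastic for 1 h and then received either a media change, as control, or UV-killed apoptotic cells (ACs) of the human T cell line Jurkat for 2 or 6 h. Each of the 6 combinations of genotype and treatment is 1 library that holds the pooled cells of 3 mice. Barcodes carry a library number from 1 to 6, which was not matched to a genotype or a treatment, so no comparison between conditions was made, and libraries are named by number. With no replicate library, no p-value is given, and every interval covers counting error only.

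LPMs are the long-lived resident phagocytes of the peritoneal cavity, in which the transcription factor GATA6 maintains a tissue-specific program under the influence of retinoids. KLF2 is a zinc finger factor that, in this compartment, is also part of the resident program, and it is a quiescence and trafficking factor in lymphocytes. *Selp* encodes P-selectin, an adhesion receptor best known from platelets and endothelium. LPMs clear dying cells without inflammation, whereas SPMs derive from monocytes and present antigen on MHC class II (MHCII).

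The selected cells numbered 255, 137, 28, 137, 72 and 42 in libraries 1 to 6, of 666, 350, 225, 690, 325 and 517 MΦs. As shares of MΦs, these were 38.3%, 39.1%, 12.4%, 19.9%, 22.2% and 8.12%. The shares in libraries 1 and 2 had overlapping intervals (34.6 to 42.1% and 33.998 to 44.5%) that lay above those of the other libraries, followed by libraries 5 and 4, which did not differ beyond counting error. Libraries 3 (8.43 to 17.5%) and 6 (5.92 to 10.8%) were lowest, with the upper bound of library 3 just above the lower bound of library 4 (16.9%). Both hold few selected cells, and levels in them rest on 200451 and 133146 UMIs, against 317704 to 1692114 in the other libraries. The selected cells were deeper than the other MΦs in each library, with medians of 6271, 5200, 7459.5, 5221, 4169.5 and 2982.5 UMIs per cell against 6224, 4781, 5732, 4424, 3468 and 2853. Depth thus moved with the selection. With each cell thinned to 2000 UMIs before the rule was applied, the share was 15.4%. Mitochondrial counts made up 2.39 to 3.07% of UMIs in selected cells and 2.12 to 2.71% in other MΦs. A barcode sequence found in more than 1 library belonged to 7 selected cells, and Scrublet called 1 selected cell a doublet.

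**Figure D1:**
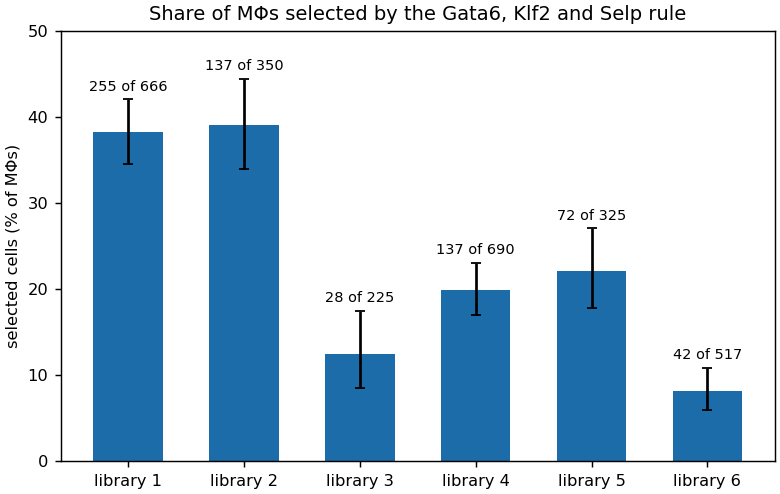
Share of MΦs that met the rule in each library (bars, % of MΦs) with exact binomial 95% intervals, and the number of selected cells of all MΦs above each bar. Libraries 1 and 2 stand near 39%, libraries 4 and 5 near 20 to 22%, and libraries 3 and 6 at 12.4% and 8.12%.

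Among the selected cells, 79.7% had a *Selp* UMI, 54.8% a *Gata6* UMI and 52.6% a *Klf2* UMI, values that the rule itself sets. All 3 were seen in 130 cells (19.4%), *Selp* alone in 128, *Klf2* alone in 47 and *Gata6* alone in 41. Pairs made up the rest, with *Gata6* and *Selp* in 149, *Klf2* and *Selp* in 128 and *Gata6* and *Klf2* in 48. *Selp* was seen least often in library 5 (63.9% of selected cells) and most often in library 1 (87.1%), while *Klf2* ran from 40.5% in library 6 to 61.1% in library 5. B cells and T and NK cells, picked on the same lymphocyte genes, had a *Klf2* UMI in 36.2% (34.5 to 37.9%) and 67.2% (62.8 to 71.5%) of cells, so *Klf2* is not particular to MΦs here. *Gata6* was seen in none of the 3116 B cells and 461 T and NK cells, and *Selp* in 0.417% (0.222 to 0.712%) of B cells.

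Each gene was then measured in cells chosen without it, on at least 2 UMIs in the sum of the other pair and under the same caps on *Tnf*, stress, *Folr2* and SPM genes. Levels are in CPM, the UMIs of a gene per 1000000 UMIs of the cells summed in a library, and ratios are log2 of selected over other MΦs of the same library after adding 10 CPM. *Gata6* stood at 152, 137, 69.2, 109, 166 and 152 CPM in libraries 1 to 6 of the cells chosen on *Klf2* and *Selp*, against 61.5, 59.4, 43.005, 63.5, 70.98 and 44.4 CPM in the other MΦs, and the median ratio was 1.101. *Klf2* stood at 229, 229, 66.1, 128, 245 and 179.8 CPM in cells chosen on *Gata6* and *Selp*, against 68.8, 72.3, 14.2, 65.3, 81.2 and 35.3 CPM, with a median ratio of 1.57. *Selp* stood at 390.5, 408, 340.3, 191, 141 and 238 CPM in cells chosen on *Gata6* and *Klf2*, against 146, 198, 74.7, 101, 94.2 and 54.9 CPM, with a median ratio of 1.18. All 18 of these ratios were above 0. The caps and the depth of the cells also differ between these groups, and their part in the ratios was not tested. Cell by cell the genes were only loosely tied, with Pearson's r of 0.15 for *Gata6* and *Klf2*, 0.21 for *Gata6* and *Selp* and 0.26 for *Klf2* and *Selp* over the 2773 MΦs, which share 6 libraries and differ in depth.

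Levels on both sides of the threshold of 2 UMIs are given for the pool of libraries, which differ in their shares of selected cells and in levels such as that of *Ackr3*. Among MΦs that met all other criteria, 313 had a sum of 1 and 207 a sum of 2. *Itga6* was at 103, 156, 258, 264 and 285 CPM at sums of 0, 1, 2, 3 and 4 or more. *F5* was at 287, 486, 605, 743 and 793 CPM, and *Ackr3* at 17.03, 38.9, 48.4, 86.97 and 106 CPM. These 3 genes were higher at each step. *Timd4*, at 28.98, 55.1, 79.3, 66.9 and 83.1 CPM, *Alox15*, at 115, 163, 229, 181 and 227 CPM, and *Vcan*, at 25.4, 17.7, 25.1, 50.8 and 75.8 CPM, were not. No intervals are given for these steps, and which of them exceed counting error was not tested. The median depth rose along the same steps, from 3194.5 to 5938 UMIs per cell.

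Outside the genes of the rule, 5151 genes reached 20 CPM on average over all MΦs, and 10 of them had a median ratio of at least 1 (2-fold) in selected over other MΦs and a ratio above 0 in each of the 6 libraries (0.194% of genes). They were *Tent5a*, *Lrg1*, *Emilin1*, *Itga6*, *Ackr3*, *Alox15*, *Ptgis*, *Padi4*, *F5* and *Vmn2r26*. By the mirrored rule, 81 genes were lower (1.57%), led by *Retnla*, *Mmp19* and the MHCII genes. Without a threshold of size, 344 genes were higher in all 6 libraries (6.68%) and 651 were lower in all 6 (12.6%), and the median ratio of all genes was -0.039. The 2-fold counts move with the pseudocount, to 23 and 130 at 1 CPM and to 3 and 28 at 50 CPM, and the higher count was 16 without library 4.

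*Itga6* (chromosome 2, 71745616–71858416, plus strand; all positions are on GRCm38) encodes integrin α6, a laminin receptor. Its level in selected cells was 262, 277, 239, 274, 308 and 361 CPM in libraries 1 to 6, against 102, 109, 66.8, 130.2, 145 and 120.1 CPM in other MΦs. The selected cells were higher in every library and their lowest level (239 CPM) lay above the highest of the other MΦs (145 CPM). The median ratio was 1.28 (1.02 to 1.699), with the exact interval above 0 in 6 of 6 libraries. A UMI of *Itga6* was found in 63.8% (60.02 to 67.4%) of selected cells and 28.6% (26.7 to 30.6%) of other MΦs, and at 2000 UMIs per cell in 34.8% (31.2 to 38.6%) and 16.9% (15.2 to 18.7%), after 22 and 244 shallower cells were left out. In B cells the share was 8.63% (7.67 to 9.67%), at a median depth of 5187.5 UMIs beside 5377 in selected cells.

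*F5* (chromosome 1, 164151838–164220277, plus strand), which encodes coagulation factor V, was at 794, 896, 654, 536, 645 and 518 CPM in selected cells, against 382, 422, 225, 386, 396 and 190.3 CPM. The groups did not overlap, and 90.6% (88.1 to 92.7%) of selected cells had a UMI, compared with 53.7% (51.5 to 55.8%) of other MΦs and 0.257% (0.111 to 0.505%) of B cells. The median ratio was 1.05 (0.46 to 1.497). *Selp* ends upstream of the start of *F5* on the same strand (164115264–164150026). *Alox15* (chromosome 11, 70344152–70352031, minus strand), the 12/15-lipoxygenase of resident peritoneal MΦs, was at 161, 318, 215, 208, 217 and 481 CPM against 81.1, 93.7, 73.6, 108, 125 and 139 CPM, again without overlap, and its highest level was in library 6. Its median ratio was 1.17 (0.75 to 1.72).

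*Tent5a* (chromosome 9, 85320439–85327348, minus strand), a non-canonical poly(A) polymerase, had the highest median ratio of all, 1.66 (0.76 to 1.91). It was at 443, 473, 279, 214, 161 and 458 CPM in selected cells and 140.3, 124, 76.98, 122, 89.6 and 114 CPM in other MΦs, and the ratios were smallest in libraries 4 and 5. *Lrg1* (chromosome 17, 56119678–56122001, minus strand), a secreted leucine-rich glycoprotein, was at 271, 269, 135, 96.99, 110.2 and 105 CPM against 102, 82.6, 38.1, 47.1, 44.8 and 27.4 CPM, a median ratio of 1.46. Selected cells of libraries 1 and 2 held the most *Lrg1*, and those of library 4 fell below the other MΦs of library 1. *Ackr3* (chromosome 1, 90203980–90216751, plus strand), an atypical receptor that scavenges CXCL12, was at 112, 123, 69.8, 31.5, 37.8 and 22.5 CPM against 39.6, 40.8, 15.2, 8.35, 16.3 and 7.02 CPM, with a median ratio of 1.24 (0.86 to 1.66). *Ackr3* too was highest in libraries 1 and 2 in both kinds of cell, and in library 6 its level rests on 3 UMIs.

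The other genes past 2-fold were *Emilin1*, a matrix glycoprotein (median ratio 1.35, 45.9 to 166 CPM in selected and 21.99 to 51.03 CPM in other MΦs), *Ptgis*, prostacyclin synthase (1.09, 116 to 155 against 55.1 to 69.3 CPM), *Padi4*, a histone-citrullinating enzyme (1.06, 78.7 to 215 against 28.8 to 66.7 CPM), and *Vmn2r26*, a vomeronasal receptor gene (1.01, 24.9 to 74.9 against 10.997 to 35.7 CPM). *Ptgis* was the most even of these 4 over libraries, with no overlap between the groups. The next by rank were *Icam2*, an adhesion molecule used to gate LPMs (0.999 and just short of 2-fold), *Hdc*, histidine decarboxylase (0.97), *Akap7*, an anchor of protein kinase A (0.96), *Serpinb1a*, an inhibitor of neutrophil proteases (0.94), and *Ltbp1*, a binding protein of latent TGF-β (0.94). For *Ltbp1* the groups did not overlap, at 228, 234, 165, 208, 268 and 158 CPM in selected cells and 118, 116, 54.98, 118, 136.5 and 54.1 CPM in other MΦs.

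Promoter windows of 300 bases from RefSeq (GRCm38.p6) were found for 7 of the 10 genes past 2-fold, too few for a share of the set to be given. The letters CCACCC, which KLF factors recognise, were sought on both strands, where the reverse reads GGGTGG. The GATA motif AGATAA was sought on both strands as well. No window of the 7 genes held AGATAA, which is in 11.2% of all 32851 windows, and 3 held CCACCC, which is in 31.5% of all. Of the 4045 genes with a window among the 5151 measured, 7.29% held AGATAA and 41.04% CCACCC. These 3 windows are shown, with CCACCC or GGGTGG in capitals, because they held the motif. All 7 genes were higher in selected cells of every library. A match is a description and not a binding site.
*F5*, GRCm38.p6 chr1:164151585-164151884, plus strand: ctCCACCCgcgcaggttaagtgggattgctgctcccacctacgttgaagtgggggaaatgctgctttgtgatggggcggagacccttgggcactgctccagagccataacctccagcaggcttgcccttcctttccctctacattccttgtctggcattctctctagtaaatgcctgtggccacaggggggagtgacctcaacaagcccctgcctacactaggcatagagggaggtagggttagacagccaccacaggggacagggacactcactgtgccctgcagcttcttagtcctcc
*Lrg1*, GRCm38.p6 chr17:56121897-56122196, minus strand: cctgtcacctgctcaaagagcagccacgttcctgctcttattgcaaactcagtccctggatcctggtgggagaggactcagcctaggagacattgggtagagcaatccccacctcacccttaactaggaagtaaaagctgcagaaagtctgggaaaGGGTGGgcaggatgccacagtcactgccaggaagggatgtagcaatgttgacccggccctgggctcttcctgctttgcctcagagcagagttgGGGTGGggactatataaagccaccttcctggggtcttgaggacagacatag
*Padi4*, GRCm38.p6 chr4:140774154-140774453, minus strand: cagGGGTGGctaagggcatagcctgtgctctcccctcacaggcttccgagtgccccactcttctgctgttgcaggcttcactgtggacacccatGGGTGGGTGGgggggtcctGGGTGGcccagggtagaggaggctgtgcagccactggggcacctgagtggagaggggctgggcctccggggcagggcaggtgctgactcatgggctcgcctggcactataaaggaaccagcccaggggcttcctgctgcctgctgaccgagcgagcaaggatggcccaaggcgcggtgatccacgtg

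**Figure D2:**
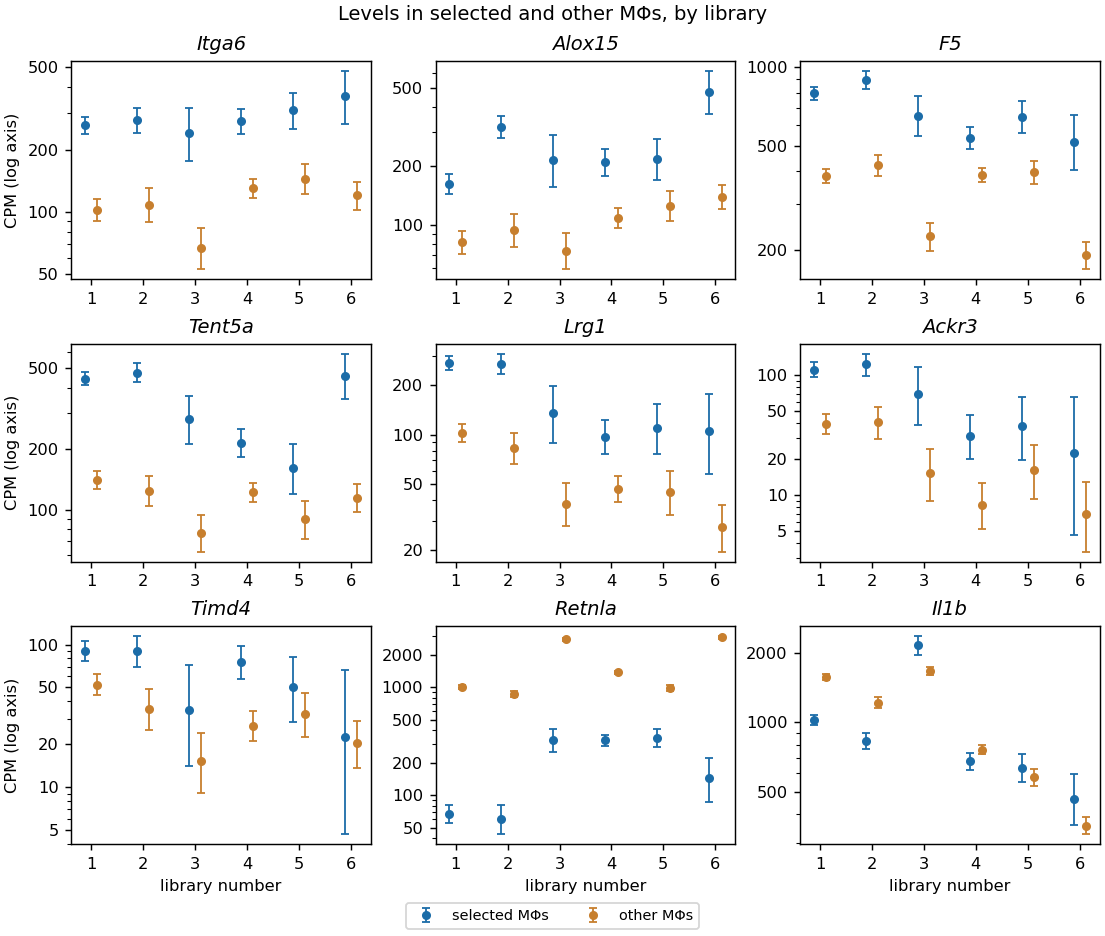
CPM (log axes) of 9 genes in selected (blue) and other MΦs (orange) of each library, with exact Poisson 95% intervals. *Itga6*, *Alox15* and *F5* are higher in selected cells of every library, *Retnla* is lower in every library, and *Il1b* is lower in libraries 1, 2 and 4 but higher in libraries 3, 5 and 6.

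Most LPM markers outside the rule were higher. Of 26 LPM markers, chosen with earlier results of these data known, 3 are used by the rule and 19 others passed 20 CPM. Of those 19, 15 were higher in all 6 libraries and none was lower in all 6, 5 passed 2-fold, and their median ratio was 0.76, beside -0.039 for all genes. Of all genes, 6.68% were higher in all 6 libraries and 0.194% were at least 2-fold higher. *Timd4* (chromosome 11, 46810800–46844332, plus strand), the phosphatidylserine receptor TIM4, was at 90.4, 90.1, 34.9, 76.02, 50.4 and 22.5 CPM against 52.4, 35.3, 15.2, 26.95, 32.6 and 20.4 CPM. It was higher in each library (median ratio 0.76), though the interval of the ratio lay above 0 in only 3 libraries, and libraries 3 and 6 hold 7 and 3 UMIs. *Vcan* (chromosome 13, 89655312–89742509, minus strand), the matrix proteoglycan versican, was at 79.8, 52.7, 34.9, 30.1, 40.9 and 22.5 CPM against 21.9, 23.2, 20.3, 25.1, 11.2 and 7.02 CPM (median ratio 0.93, interval above 0 in 3 libraries). *Fn1*, fibronectin, was among the most abundant transcripts, at 12844, 13251, 11988, 12249.5, 13141 and 10965 CPM against 8543, 7889, 5963, 8637, 8056 and 5680.1 CPM, without overlap. *Prg4*, lubricin, was at 1180.3 to 2239 CPM against 611 to 1443 CPM (median ratio 0.67), and *Saa3*, *Vsig4*, *Nt5e* and *Ednrb* were higher in all 6 libraries with median ratios of 0.56, 0.72, 0.77 and 0.47. The 4 markers without a common direction were *Cxcl13* (0.21), *Serpinb2* (0.28), *F10* (-0.14) and *Marco* (-0.54).

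SPM markers were low, a direction not independent of the rule, which caps *Irf4* and *Fcrls* of this list and also *Ocstamp* and *Dcstamp*. Of 16, 9 outside the rule passed 20 CPM, 7 of them were lower in all 6 libraries and 6 passed 2-fold, with a median ratio of -2.33. Among all genes these shares were 12.6% and 1.57%. *Retnla* (chromosome 16, 48842551–48844461, plus strand), the secreted protein RELMα, was the lowest gene of all, at 66.8, 59.6, 324, 321, 339.9 and 143 CPM in selected cells and 1009.6, 862, 2782, 1376, 993 and 2897 CPM in other MΦs (median ratio -3.35, -4.25 to -1.52). Even its highest level in selected cells lay below the lowest in other MΦs. A *Retnla* UMI was found in 10.3% (8.09 to 12.8%) of selected cells and 40.6% (38.5 to 42.7%) of other MΦs. *Itgax*, the integrin CD11c, was at 0 to 7.51 CPM against 22.4 to 163 CPM, and *Lyz1* at 742 to 1412 CPM against 1344 to 2940.4 CPM. *Edn1*, endothelin 1, had 1 UMI in all selected cells, against 18.6 to 250.4 CPM in other MΦs, and *Siglecf*, an eosinophil lectin, had none against 7.97 to 60.1 CPM. The matrix metalloproteinases *Mmp19* (median ratio -3.203) and *Mmp12* (-2.31), the activin subunit *Inhba* (-2.37), the potassium channel *Kcnn4* (-2.03), the nuclear receptor *Nr4a3* (-2.04) and the chemokine *Ccl22* (-2.42) were also among the 15 lowest. These medians depend on the added 10 CPM, since the selected cells held only 23 UMIs of *Ccl22* and 25 of *Kcnn4* in all.

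Markers of other cell types were scarce in the selected cells. The MΦ criteria cap *Cd79a* and *Cd79b* among the B cell markers and *Cd3d*, *Cd3e* and *Nkg7* among the T and NK cell markers, so the low sums of both lists are set in part by selection. The 10 B cell markers summed to 6.93 to 38.01 CPM over libraries, the 11 T and NK cell markers to 0 to 15.7 CPM, the 7 mast cell markers to 0 to 7.51 CPM and the 8 platelet markers to 0 to 3.15 CPM, with *Gp9*, *Gp1bb*, *Gp1ba*, *Gp5* and *Tubb1* at 0. In other MΦs the platelet markers summed to 2.04 to 27.8 CPM, and the source of the *Selp* RNA was not tested. All 11 mesothelial and stromal markers were at 0 UMIs, including the endothelial genes *Cdh5* and *Kdr*. The 9 neutrophil and eosinophil markers summed to 37.6 to 134 CPM, of which *Csf3r* gave 19.95 to 85.7 CPM, with *S100a9*, *Ly6g*, *Retnlg*, *Siglecf*, *Epx* and *Prg2* at 0, and the 8 monocyte markers to 261 to 447 CPM, beside 244 to 534 CPM in other MΦs.

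The other MΦs are a mixture, and the differences depended on which of them served as the reference. Of the 2102, 1055 missed only the sum of *Gata6*, *Klf2* and *Selp*, 465 exceeded the stress criterion, 338 the SPM criterion, 260 the *Tnf* criterion and 134 held *Folr2*, with some cells in several of these sets. Against the 1055 that missed only the sum, 8 genes were at least 2-fold higher in selected cells (0.155%) and 50 lower (0.971%). Of the 10 genes above, 6 passed again and all 10 kept a positive median. Of the 81 lower genes, 44 passed again. The median ratio in this comparison was 1.24 for *Itga6*, 1.33 for *Tent5a*, 1.07 for *F5*, -2.54 for *Retnla* and -2.34 for *Cd74*. Without the MΦs that exceeded the SPM criterion, 5 genes were 2-fold higher and 39 lower.

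A set of 217 MΦs met the sum but missed another criterion, and some LPM markers in it lay between the selected cells and the MΦs that missed only the sum. In it, *Itga6* was at 195 CPM (173 to 218), compared with 274 CPM (257 to 291) in selected cells, 121 CPM (110.4 to 132) where only the sum was missed and 32.5 CPM (24.4 to 42.4) where the SPM criterion was exceeded, over the pool of libraries. *F5* followed the same order, at 732, 569.7, 355 and 83.7 CPM. *Serpinb2*, at 3017 CPM in the 217 cells against 2240.3 and 1706 CPM, *Marco*, at 170.6 against 94.8 and 109.9 CPM, *F10*, at 835 against 639 and 682 CPM, and *Cxcl13*, at 64.5 against 45.2 and 55.8 CPM, were higher in it than in both. *Ednrb*, at 404 CPM, was lower than in both (555 and 511 CPM). The set held 67, 30, 21, 68, 16 and 15 cells in libraries 1 to 6, so ratios in libraries 3, 5 and 6 rest on few cells. Against these 217 cells, the median ratio was 0.49 for *Itga6* and 0.201 for *F5*, and none of the 10 genes passed 2-fold in all libraries. The 5 that did included *Cytip*, *F630028O10Rik*, *Abi3* and *Pld1*. The 16 lower genes included *Ccl4* (-2.37), *Il1rn* (-1.68) and *Hspa5* (-1.06), in a set that the rule defines in part by high *Tnf* or stress genes. Its median depth was 6688 UMIs per cell, beside 5377 in selected cells and 3432 where only the sum was missed, and the part of depth in these differences was not tested.

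**Figure D3:**
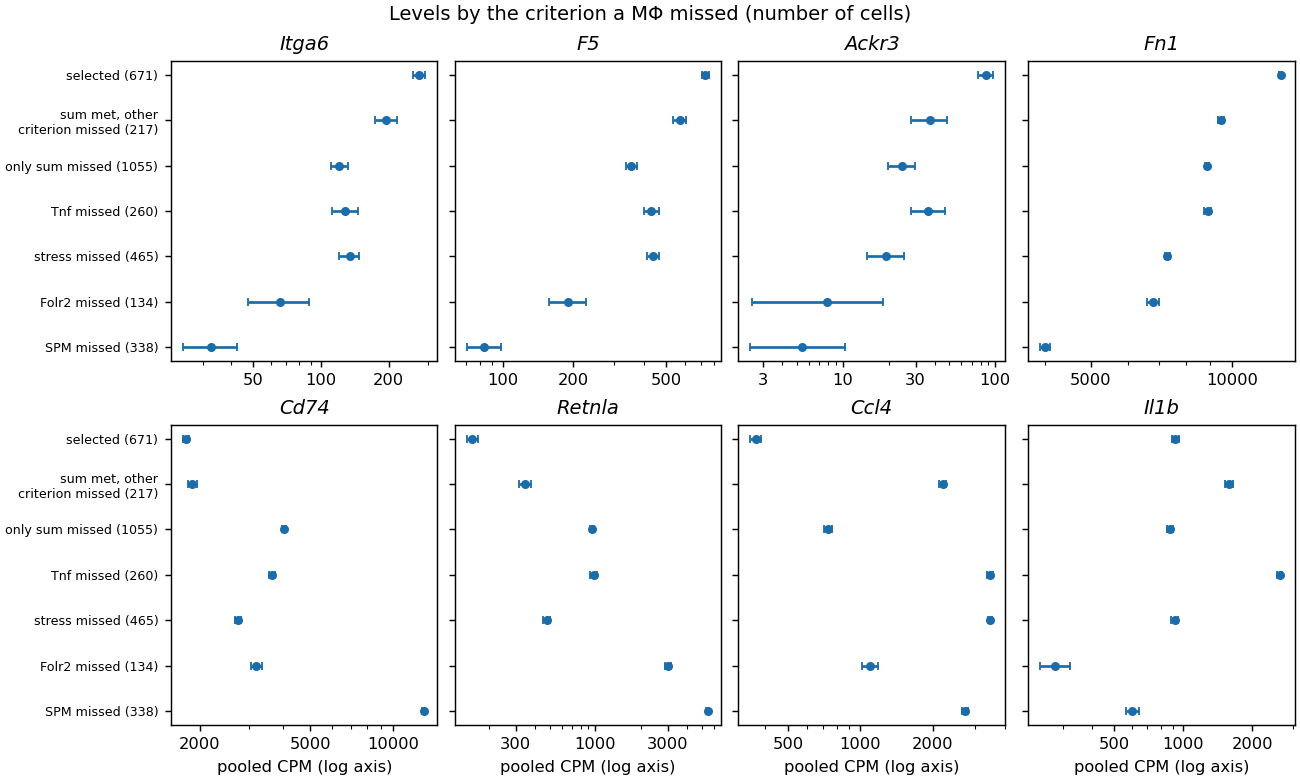
Pooled CPM (log axes, exact Poisson 95% intervals) of 8 genes in the selected cells and in other MΦs grouped by the criterion they missed, with the number of cells in parentheses. Groups from the *Tnf* criterion down overlap each other. *Itga6*, *F5*, *Ackr3* and *Fn1* are highest in selected cells and lowest where the SPM criterion was exceeded, and *Cd74* and *Retnla* run the other way.

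Receptors and bridging molecules for dead cells did not move as a block. Of the 14 of 25 that passed 20 CPM, 7 were higher in all 6 libraries, 3 were lower in all 6 and 2 passed 2-fold, both lower, with a median ratio of 0.18. Over all genes, 6.68% were higher in all 6, 12.6% lower in all 6 and 1.57% lower by at least 2-fold. *Mertk*, the TAM receptor, was at 27.2, 41.6, 19.95, 32.8, 40.9 and 75.1 CPM in selected cells and 18.1, 28.8, 16.9, 17.8, 24.4 and 23.9 CPM in other MΦs. It was higher in each library, but with the interval above 0 in only 2, and libraries of MerTK -/- mice are among the 6, all of which held *Mertk* RNA. Its relative *Axl* was the reverse, at 5.32, 5.55, 9.98, 6.55, 12.6 and 7.51 CPM against 32.1, 40.8, 73.6, 21.6, 23.4 and 64.6 CPM, a median ratio of -1.58 with the interval below 0 in 5 libraries. The bridging genes *Pros1* (0.76), which links TAM receptors to dead cells, and *Mfge8* (0.64), which links integrins, were higher in all 6 libraries, as were the C1q genes *C1qa* (0.37), *C1qb* (0.29) and *C1qc* (0.398). The phosphatidylserine binder *Anxa5* (-1.18) and the scavenger receptor *Cd36* (-0.27) were lower in all 6.

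Not all inflammatory genes were low, as the name resting would have it. The rule caps *Tnf*, so the direction of genes that accompany it is not independent of the rule. Of 18 inflammatory genes outside the rule, 5 were lower in all 6 libraries (*Ccl4*, *Il1rn*, *Ccl3*, *Ccl2* and *Ccl7*), none was higher in all 6 and 13 had mixed signs. The shares of all genes were 12.6% lower and 6.68% higher in all 6. The median ratio of the 18 was -0.43, and 0.057 against MΦs that missed only the sum. *Il1b* was at 1025, 831, 2160.1, 676, 636 and 466 CPM in selected cells and 1580.2, 1217, 1673, 761, 577 and 356 CPM in other MΦs, with a median ratio of -0.015. It was lower in libraries 1, 2 and 4 and higher in libraries 3, 5 and 6. Among selected cells, 55.3, 44.5, 67.9, 36.5, 31.9 and 14.3% had an *Il1b* UMI in libraries 1 to 6, compared with 2.18% (1.699 to 2.76%) of B cells over all libraries, and single cells held up to 83 UMIs. *Cxcl2*, a neutrophil chemokine, was found in 83.9 to 94.9% of selected cells and 2.76% (2.21 to 3.397%) of B cells, at 3752, 3029.6, 11459, 3371, 2619 and 3297 CPM. The CC chemokine *Ccl4* was at 390.05, 272, 1512, 241, 135 and 173 CPM against 2065, 2359, 4667, 1189, 812 and 934 CPM (median ratio -2.37), and the IL-1 receptor antagonist *Il1rn* at 277, 381, 843, 512, 438 and 2283 CPM against 1690.3, 2027, 3735, 1405, 1837 and 4321 CPM (-2.09), both without a library of the opposite sign. For *Ccl3* the median ratio of -1.49 became 0.032 against MΦs that missed only the sum, and for *Ccl2* -0.51 became 0.504.

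The rule also caps 4 stress genes. Of 17 others of the integrated stress and unfolded protein responses, 9 were lower and 1 (*Nupr1*) higher in all 6 libraries, with a median of -0.29, and a median of -0.038 against MΦs that missed only the sum. For all genes, 12.6% were lower and 6.68% higher in all 6. *Atf3* kept its direction, at 144 to 361 CPM against 524 to 732 CPM, with median ratios of -1.21 and -0.94 in these comparisons, while that of the chaperone gene *Hspa5* was -0.67 and -0.11.

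Several secreted systems held genes that were higher in the selected cells. Of 11 complement genes measured, 7 were higher in all 6 libraries, beside 6.68% of all genes, and 1, *Itgax*, was lower. *C4b* was at 1171, 1204, 868, 666, 589 and 376 CPM against 611, 632, 356, 480.2, 421 and 265 CPM (median ratio 0.704), with the interval above 0 in 6 of 6 libraries. Of 11 matrix and secreted proteins, 7 were higher in all 6 and 3 were lower, *Tgfb1*, *Tgfbi* (-1.096) and *Hbegf*, beside 12.6% of all genes lower. Of 14 genes of coagulation and vascular adhesion, 4 were higher in all 6, namely *F5*, *Icam2*, *Thbs1* (0.41, at 10783 to 17702 CPM) and *Thbd* (0.39), which encodes the anticoagulant receptor thrombomodulin, and 2 were lower, *Procr* (-0.94) and *Plaur*, a share near that of all genes. Tissue factor, *F3*, had a median ratio of -1.296 with 1 library of the opposite sign, library 3.

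Receptors for retinoids, which act upstream of GATA6, and other KLF factors had small median ratios among those that passed 20 CPM. Below that level, *Rarg* was at 14.9 CPM in selected cells and 6.33 CPM in other MΦs over the pool of libraries, with separate intervals. For *Rarb*, at 2.35 against 1.11 CPM, and *Rxrb*, at 11.8 against 10.9 CPM, the intervals overlapped. The counts that follow are set beside the 6.68% of all genes that were higher and the 12.6% that were lower in all 6 libraries. Of 7 retinoid and nuclear receptors that passed 20 CPM, *Nr1h2* (0.405) was higher in all 6 libraries and the others had mixed signs, with *Rxra* at -0.014 and *Rara* at -0.023. Of 8 KLF factors and KLF2 targets outside the rule, 3 were higher in all 6, namely *S1pr1* (0.61), a lymphocyte egress receptor and KLF2 target, *Thbd* and *Klf13* (0.29), and 2 were lower, *Klf6* (-0.44) and *Klf4* (-0.23). *Klf4* was at only 9.98 to 30.04 CPM, and its median was above 0 when the sum of the rule was set to 1 or to 3. *Klf3* had mixed signs, but over the pool of libraries it was at 107 CPM (96.7 to 118) against 59.7 CPM (54.99 to 64.7). Of 13 macrophage core genes, 5 were higher in all 6, among them *Fcgr3* (0.76), *Itgam* (0.56), *Lyz2* (0.52) and *Cd14* (0.52), and *Cd68* was lower (-0.62). *Lyz2* reached 17736, 16906, 23213, 22132, 20601 and 22945 CPM in selected cells, above the 11718 to 16008.5 CPM of other MΦs in every library.

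Genes of lipid handling and lysosomes are set beside the 12.6% of all genes that were lower and the 6.68% that were higher in all 6 libraries. Of 12 lipid genes, 5 were lower in all 6 libraries, led by lipoprotein lipase, *Lpl* (-1.28), and 2 were higher, the cholesterol exporter *Abca1* (0.39) and the scavenger receptor *Msr1* (0.57). Of 14 lysosomal genes, 6 were lower and 0 higher in all 6, with a median of -0.23. Cell cycle genes that passed 20 CPM on average over all MΦs gave no common direction, with *Mki67* at 0.24, *Pcna* at -0.52 and *Hmgb2* at 0.59. Of those that did not pass, *Top2a* was at 25.3 CPM in selected cells and 12.2 CPM in other MΦs over the pool of libraries. *Stmn1* was at 17.8 against 10.8 CPM, and both genes had separate intervals. For *Mcm5*, *Birc5*, *Cdk1*, *Ube2c*, *Ccnb1* and *Ccna2* the intervals overlapped. The part of library in these pooled values was not tested.

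**Figure D4:**
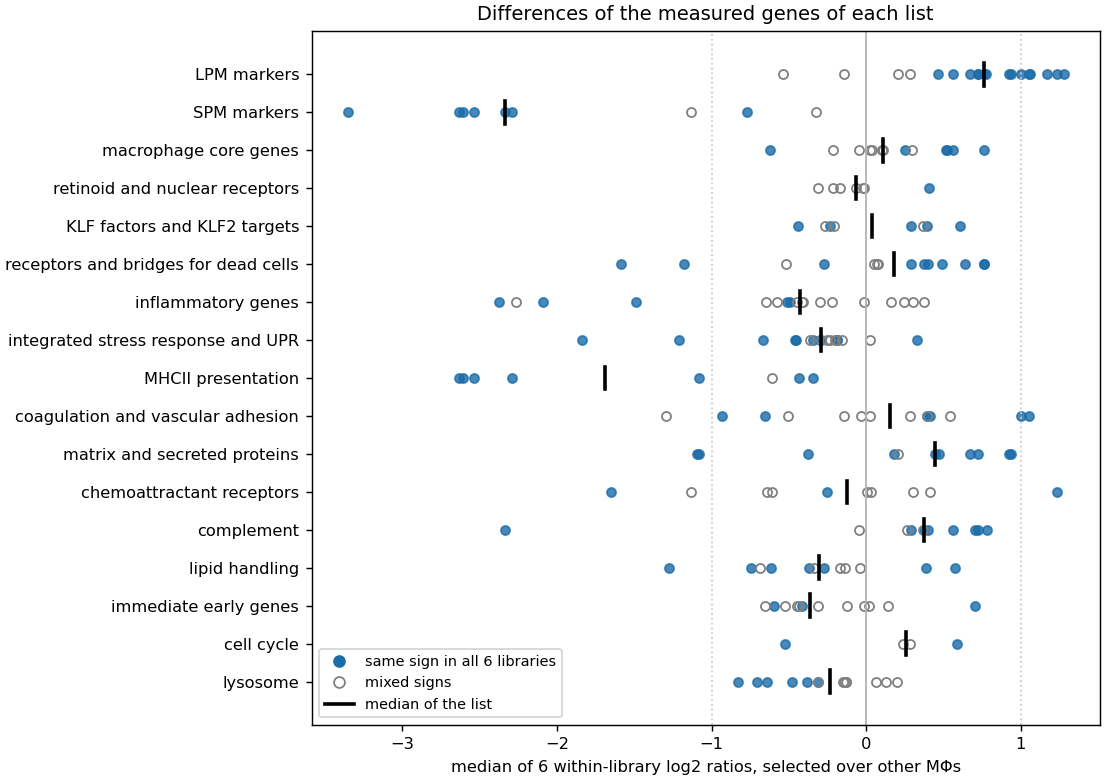
Median of the 6 within-library log2 ratios (selected over other MΦs, x axis) for each measured gene of 17 lists. Filled points had 1 sign in all 6 libraries, open points did not, black bars are list medians and dotted lines mark 2-fold. LPM markers lie mostly to the right, SPM markers and MHCII genes to the left, and inflammatory genes are spread on both sides.

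MHCII genes had 4 of the 5 largest standard deviations over libraries within the selected cells. *Cd74*, the invariant chain, was at 2552, 2436, 2739, 179.6, 69.2 and 203 CPM in selected cells of libraries 1 to 6, and 92.2, 84.7, 82.1, 23.4, 19.4 and 30.95% of them had a UMI. *H2-Aa* was at 678, 611, 688, 41.9, 28.3 and 37.6 CPM, *H2-Ab1* at 685, 613, 524, 57.7, 50.4 and 15.02 CPM and *H2-Eb1* at 322, 329, 314, 24.9, 15.7 and 22.5 CPM. Each of the 4 genes was over 10 times higher in its highest than in its lowest library. In other MΦs *Cd74* was at 6459, 5744, 9332, 1861, 1599 and 5361 CPM and *H2-Ab1* at 1423, 1252, 2045, 410.4, 406 and 1427 CPM, lowest in libraries 4 and 5 and highest in library 3. Within each library the selected cells were lower, with median ratios from -2.29 for *H2-Ab1* to -2.63 for *H2-Eb1*, and ratios of -1.04 and -5.84 for *H2-Ab1* in libraries 1 and 6, the latter on 2 UMIs in selected cells.

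B cells, which hold much MHCII RNA, were 42.8, 50.8, 45.005, 36.4, 43.8 and 27.2% of kept cells in libraries 1 to 6. T and NK cells, which should lack it, had an *H2-Ab1* UMI in 2.35, 2.73, 6.79, 4.08, 7.69 and 25% of 85, 110, 162, 49, 39 and 16 cells, at median depths of 2785, 2504.5, 2860.5, 2693, 2653 and 1514 UMIs. The selected cells had 79.6, 78.1, 75, 12.4, 19.4 and 4.76%. In libraries 1, 2 and 3 the share in selected cells was thus far above that of T and NK cells. In libraries 4 and 5 the intervals overlapped (7.398 to 19.1% against 0.498 to 13.98%, and 11.1 to 30.5% against 1.62 to 20.9%). The share in library 6 was lower than that of T and NK cells, also with overlap (0.582 to 16.2% against 7.27 to 52.4%). That comparison rests on 2 UMIs in selected cells and on 16 T and NK cells, and the source of the RNA was not tested. *Cd74* in library 4 was found in 23.4% of selected cells (16.6 to 31.3%) and 2.04% of T and NK cells (0.0517 to 10.9%), without overlap of the intervals. In libraries 5 and 6 the T and NK cells held more *Cd74* RNA, at 1610.3 and 3304.5 CPM, than the selected cells. It came from 12.8% of 39 and 25% of 16 T and NK cells, so a few cells set these levels. In selected cells, 19.4% (11.1 to 30.5%) and 30.95% (17.6 to 47.1%) had a *Cd74* UMI, with intervals that overlapped those of T and NK cells. How far MHCII RNA in the selected cells of these libraries came from other cells was not tested.

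Other genes that varied widely in selected cells over libraries included *Ccl7* at 20.1, 44.4, 973, 143, 129 and 556 CPM, *Ccl2* at 33.7, 157, 1192, 163, 192 and 466 CPM and *Timp1*, a metalloproteinase inhibitor, at 16.5, 9.71, 339, 13.1, 0 and 75.1 CPM. The selected cells of library 3 were highest for all 3. *Vim*, the intermediate filament vimentin, was at 34.3, 24.96, 29.9, 152, 142 and 811 CPM and *Spp1*, osteopontin, at 238, 199.7, 264, 34.1, 161 and 1352 CPM, and both were highest in library 6. *Plcb1*, a phospholipase C, was at 106, 73.5, 165, 22.3, 15.7 and 0 CPM and highest in library 3. The standard deviation of log2(CPM + 10) over the 6 libraries was 2.32 for *Cd74*, 1.92 for *Ccl7* and 1.55 for *Plcb1*, and the median gene had 0.38 in selected cells and 0.27 in other MΦs, which rest on more cells. *Slpi*, a protease inhibitor and one of the most abundant transcripts, was at 21521, 23011, 28161.5, 9779, 10283 and 9125 CPM. *Cxcl13*, a B cell chemokine of the cavity, was lower than in other MΦs in libraries 1, 2 and 3 (29.5, 42.98 and 0 CPM against 52.05, 80.7 and 24.5 CPM) and higher in libraries 4, 5 and 6 (79.95, 53.5 and 105 CPM against 33.03, 18.3 and 27.4 CPM). Genotype, treatment and library cannot be told apart for any of these values.

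**Figure D5:**
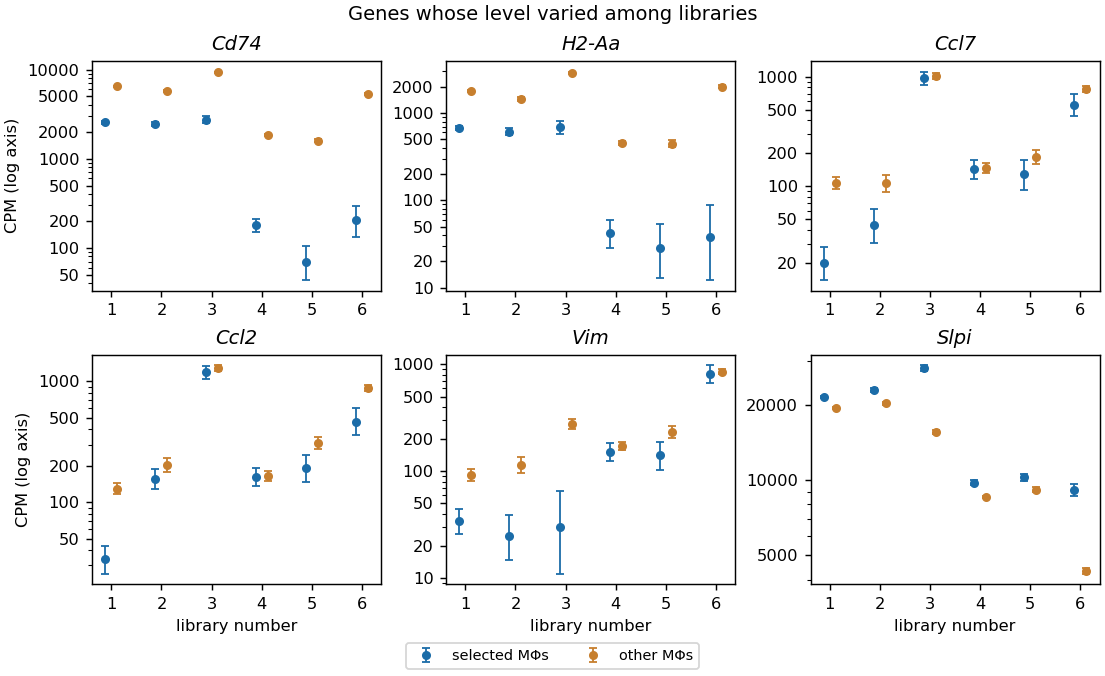
CPM (log axes) of 6 genes in selected (blue) and other MΦs (orange) by library number, with exact Poisson 95% intervals. *Cd74* in selected cells runs from 69.2 CPM in library 5 to 2739 CPM in library 3, selected cells lie below other MΦs in every library for *Cd74* and *H2-Aa*, *Ccl7* and *Ccl2* peak in library 3, and *Vim* peaks in library 6.

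Within the selected cells, levels of other genes varied with which of the 3 genes was seen. In cells with *Gata6* alone, *Klf2* alone and *Selp* alone, *Itga6* was at 216, 261 and 259.96 CPM, beside 316 CPM where all 3 were seen. *Ackr3* was at 53.01, 61.4, 56.8 and 128 CPM in the same order. All of these lie above the 121 and 24.4 CPM of MΦs that missed only the sum, also in the cells with *Klf2* alone, the gene that lymphocytes share. *Vcan* was at 53.01, 15.4, 46.3 and 73.2 CPM in the same order, and at 22.8 CPM in MΦs that missed only the sum. The 15.4 CPM of the 47 cells with *Klf2* alone rests on few UMIs, so whether it lies below 22.8 CPM cannot be told. *Il1b* was at 1034, 369, 1497 and 739.7 CPM, in the same order. The cells are pooled over libraries that differ in *Il1b* and in the shares of cells with each gene, and the part of library in these values was not tested.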

How the data were processed

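Adherent peritoneal cells were profiled with 5′ droplet libraries. Per the study's methods, reads were mapped to mouse (mm10, GRCm38) and human with Cell Ranger, given as version 2.2 in the submitters' processing notes and as an earlier version in the methods. The authors deposited raw UMI counts of 55538 features in 7760 barcodes, not normalized and not filtered at the limits used here. Human-aligned reads were not analysed here, and no removal of free RNA is stated.

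The members and the gene lists were chosen with earlier results of these data known. Per library, UMIs were summed over selected and over other MΦs (133146 to 1692114 and 981682 to 2651531 UMIs) and scaled to CPM. Selected cells and genes of the rule are described without a test. Named genes are those of the lists, the 15 highest and 15 lowest median ratios with 1 sign in all 6 libraries, and the 10 with the largest spread over libraries. *Cytip*, *F630028O10Rik*, *Abi3* and *Pld1*, the per-library values of *Slpi* and those of *Cebpb*, *Egr1* and *Nr4a1* in the closing section were singled out after their values were seen. B cells had at least 3 UMIs of *Cd79a* and *Cd79b*, and T and NK cells at least 2 of *Cd3d*, *Cd3e* and *Nkg7*, with at most 1 MΦ UMI. Intervals are exact Poisson for CPM, exact conditional for ratios and Clopper-Pearson for shares, at 95% (scipy 1.17.1, Python 3.11.15). Scrublet (scanpy 1.11.5, expected rate 0.01) called 63 of 7665 cells (0.822%), which were kept. Factors by TMM came from edgeR 4.0.16. Alternatives were other cell filters, sums, pseudocounts, minimum levels, scalings and reference cells, thinning, and libraries left out. Positions are from GENCODE vM21 on GRCm38. Some genes of the lists and calls are not reported here.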

Additional observations from a re-analysis of the deposited data

How the results depend on the processing

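The share of MΦs that were selected was 24.2%, and it became 26.0% with at least 1000 genes per cell, 16.7% and 35.5% with a sum of at least 3 or 1, and 15.4% after thinning to 2000 UMIs. With libraries left out in turn it ran from 19.7 to 27.9%. The 10 higher and 81 lower genes became 23 and 130 with 1 CPM added, 3 and 28 with 50 CPM added, and 4 and 34 with a mean of at least 100 CPM, which leaves fewer genes to test. Against MΦs that missed only the sum they were 8 and 50, against those that met the sum and missed another criterion 5 and 16, and without those over the SPM criterion 5 and 39. The cause of these shifts was not tested. Leaving out each library gave 9 to 16 higher and 79 to 104 lower genes. Without libraries 3 and 6 together, a choice made after seeing the data, the counts were 9 and 81, of which 7 and 61 are shared with the counts above. With each cell thinned to 2000 UMIs there were 10 higher and 90 lower genes, of which 6 and 52 are shared with the counts above, and 12 of 80 named genes moved by more than their standard deviation. A minimum level leaves a median ratio as it is, and leaving out 1 library cannot shift it by the standard deviation over libraries. In each of these settings all 80 genes thus stayed within it by design, and they are included in the next count. Of 1760 median ratios of 80 genes under 22 settings, 1631 moved by less than the standard deviation over libraries, 121 moved further and 8 changed sign. The last were *Klf4* with a sum of at least 3 (0.11) or 1 (0.072), *Ccl3* (0.032) and *Ccl2* (0.504) against MΦs that missed only the sum, and *Itgax* (0.12), *Mmp12* (0.18), *Cd36* (0.15) and *Slpi* (-0.083) against those that met the sum. No paired analysis was possible because no replicate number links libraries of different conditions. The ratios themselves are taken within each library. In library 6, 3 UMIs correspond to 22.5 CPM in selected cells, and in library 1 to 1.77 CPM, which sets how low a level could be measured.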

Other observations

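The 6 libraries are of unassigned condition, and values of several genes in selected cells fell into separate groups of libraries. *Cd74* was at 2552, 2436, 2739, 179.6, 69.2 and 203 CPM, *Slpi* at 21521, 23011, 28161.5, 9779, 10283 and 9125 CPM and *Cebpb*, a transcription factor of inflammation, at 399.5, 312, 339, 779.8, 1058 and 1487 CPM in libraries 1 to 6. *Cd74*, *H2-Aa*, *H2-Ab1*, *H2-Eb1* and *Slpi* were higher in each of libraries 1, 2 and 3 than in any of libraries 4, 5 and 6, and *Cebpb* was lower. *H2-Aa* was at 678, 611, 688, 41.9, 28.3 and 37.6 CPM, *H2-Ab1* at 685, 613, 524, 57.7, 50.4 and 15.02 CPM and *H2-Eb1* at 322, 329, 314, 24.9, 15.7 and 22.5 CPM. For *Slpi* and *Cebpb* the other MΦs were split the same way, at 19453, 20385, 15622, 8577, 9172 and 4322 CPM and 368, 289, 308, 803, 1122 and 1194 CPM. *Procr*, the protein C receptor, was at 40.8, 31.9, 39.9, 161, 142 and 75.1 CPM in selected cells, lower in libraries 1, 2 and 3. What these groups of libraries share was not tested.

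Immediate early genes in selected cells were uneven among libraries. *Egr1* was at 181, 122, 843, 261, 104 and 511 CPM and *Nr4a1* at 204, 122, 718, 216, 113 and 421 CPM, both highest in library 3, which holds 28 selected cells, and next in library 6. In these 2 libraries selected cells exceeded the other MΦs for *Egr1* (389.96 and 182 CPM in other MΦs), and in the other 4 they did not. *Fos* was higher than in other MΦs in all 6 libraries, with a median ratio of 0.702, at 60.1 to 129.7 CPM.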
